A study of Saccharomyces cerevisiae with 11 samples.

Results

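The autophagy genes described here are the genes of budding yeast, Saccharomyces cerevisiae, whose standard symbol is ATG followed by a number. The R64 reference annotation holds 37 of them, and 35 had a row in both deposited expression tables, which hold 5936 and 5931 rows. The rule uses the gene names alone, though autophagy was taken up with earlier results of these data known. The other members, ATG15 and ATG22, lie on chromosome III and are not analysed here. RNA was taken from 11 libraries: 3 of the genotype GD (GD1, GD2, GD3), 3 of the genotype SD (SD1, SD2, SD3), 3 of the genotype RD (RD1, RD5, RD6), and 2 wild-type libraries, control and ControlSYN3. The series concerns the transcription of clustered essential genes, and sequence tags were used to tell synthetic from wild-type copies. What the letters of the genotypes stand for, the growth medium, the growth stage, and whether libraries of one genotype are separate strains, clones or cultures are not given in the sources used here. The spread that p-values rest on is thus that between libraries, and it may be technical.

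Values are FPKM, fragment counts scaled to transcript length and to the size of the library, as the authors computed them. The GD, SD and control libraries share one table and the RD and ControlSYN3 libraries the other, so levels were compared only within a table. Library depth is unknown, since FPKM hold none. A difference is given on the log2(FPKM + 1) scale with its standard error, the first named group minus the second, and understates changes of low genes. A gene is said to be called, or to have risen or fallen, when its adjusted p-value in limma, with Benjamini-Hochberg adjustment over all genes of the table, was below 0.05. All 35 genes passed the minimum mean of 1 FPKM and were tested among 5899 and 5895 genes. Each wild-type group is 1 library and was assumed to vary like the strains.

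RD1 stood apart from the other libraries in its mating-type genes. The alpha-pheromone gene MF(ALPHA)1 had 27.4, 6637 and 5895 FPKM in RD1, RD5 and RD6 and 6099 FPKM in ControlSYN3, while the a-pheromone gene MFA2 had 2559, 7.48 and 7.40 FPKM in RD1, RD5 and RD6 and 3.47 FPKM in ControlSYN3. The 4 alpha-type genes examined summed to 2525 to 11089.9 FPKM in the other 10 libraries and to 114 FPKM in RD1. Results on RD are therefore given with and without RD1.

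Autophagy carries cytoplasm, proteins and whole organelles to the vacuole, the degradative compartment of yeast, inside a double membrane called the autophagosome. The Atg1 kinase complex starts the process, a lipid kinase complex and Atg9 vesicles supply membrane and its identity, and a pair of ubiquitin-like systems attach Atg8 to the lipid phosphatidylethanolamine on the growing membrane. Receptors then tie chosen cargo to Atg8. In yeast, many ATG transcripts are known to be low in cells growing on rich medium and to rise on nitrogen starvation or towards stationary phase, ATG8 above all.

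Within the table of GD, SD and control, ATG41 was the highest member in each of the 6 strain libraries, and ATG33 in the control. ATG8 was next in GD1, GD3 and the 3 SD libraries, and ATG33 in GD2. The median member had 33.2, 40.7 and 25.6 FPKM in GD1 to GD3, 74.5, 71.6 and 75.2 FPKM in SD1 to SD3, and 59.7 FPKM in the control. It ranked at the 28.2, 33.1 and 25 percentile of all rows in GD1, GD2 and GD3, at the 55.4, 55.5 and 57.7 percentile in SD1, SD2 and SD3, and at the 41.0 percentile in the control. The lowest were ATG2, which encodes a lipid-transfer protein, in the GD libraries and the control, and ATG10, which encodes an E2-like conjugating enzyme, in the SD libraries.

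**Figure D1:**
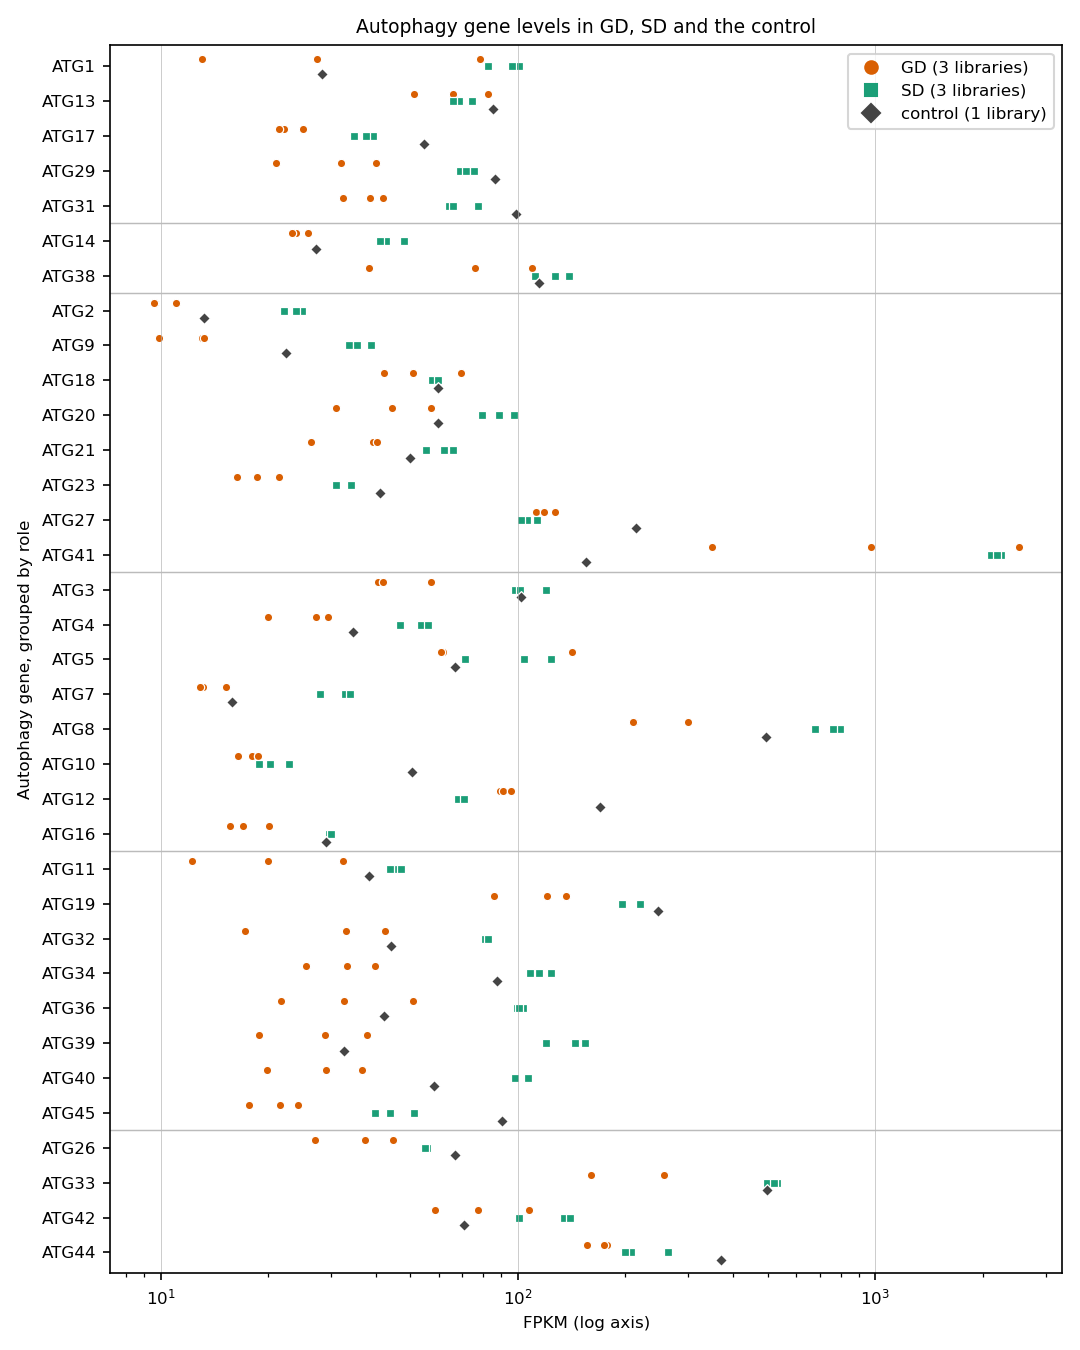
FPKM (log axis) of the 35 autophagy genes, ordered by role, in the GD (3), SD (3) and control (1) libraries; each point is 1 library. The GD points lie below the SD points for 28 of the 35 genes, and ATG41 and ATG8 hold the highest SD values.

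The autophagy genes were lower in GD than in SD as a group. Of the 35 genes, 24 fell and 1, ATG12, rose in GD relative to SD, and 10 were not called. Of all 5899 genes tested, 40.8% were called, 20.4% lower and 20.4% higher. In RNA from whole cultures, fewer cells with a transcript and less of it per cell cannot be told apart. The median difference was -1.02 over the autophagy genes and -0.04 over all genes, and 33 of the 35 lay below the median of all genes. In 28 of the 35 every GD library was below every SD library, against 28.5% of all genes. In 1, ATG12, every GD library was above every SD library, against 27.9% of all genes. The largest falls were those of ATG39, ATG40, ATG34, ATG8, ATG36 and ATG9, of which ATG39, ATG40, ATG34 and ATG36 encode receptors for cargo. Of the 25 calls, 20 were made whichever single library was left out. The calls of ATG11, ATG12, ATG19, ATG21 and ATG26 were lost without at least 1 library.

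**Figure D2:**
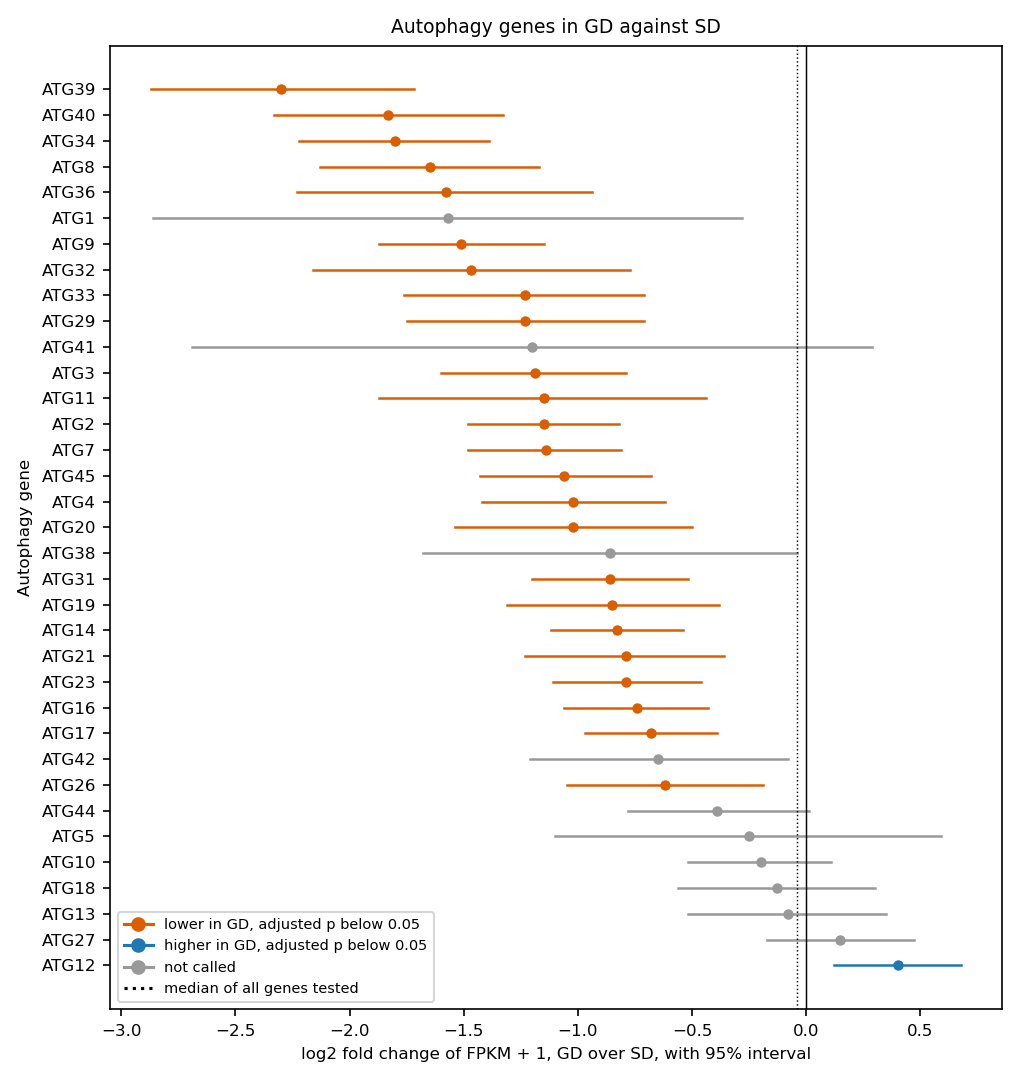
Difference of GD minus SD for each of the 35 autophagy genes on the log2(FPKM + 1) scale, with 95% intervals, the largest fall at the top. Coloured points were called by limma; 24 lie below 0 and ATG12 alone above it, and the dotted line at -0.04 marks the median of all genes tested.

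The 12 stress-induced marker genes, a list chosen with earlier results of these data known, also fell in GD relative to SD. All 12 were called lower, against 20.4% of all genes, with a median difference of -2.57. Relative to the control 3 of the 12 fell in GD, against 27.1% of all genes, and 7 rose in SD, against 10.4%. Their summed level was 4576, 4369 and 3672 FPKM in GD1 to GD3, 27763, 39787 and 40056 FPKM in SD1 to SD3, and 7571 FPKM in the control. In the other table it was 21550.3, 15854 and 12179 FPKM in RD1, RD5 and RD6 and 23229.6 FPKM in ControlSYN3. HSP26, a small heat-shock protein gene, was -4.05 ± 0.33 in GD against SD, and the catalase gene CTT1 -3.54 ± 0.34 (limma adjusted p = 0.000264 and 0.000441). Whether GD and SD differed in growth or stress state, and what part that might have in the autophagy results, was not tested.

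The upstream sequences of ATG8, ATG39 and ATG9, which had some of the largest falls, and of ATG12, the member that moved the other way, are shown so that they can be set beside the values. Each is the 300 bases before the start codon in R64, read 5′ to 3′ on the strand of the gene. The windows of the minus-strand genes are chrII:80732-81031 for ATG8 and chrXII:758834-759133 for ATG39. Those of the plus-strand genes are chrIV:184625-184924 for ATG9 and chrII:657532-657831 for ATG12. Capitals mark matches, on either strand, to 4 motifs: GCCGCC, the core of the URS1 element bound by the repressor Ume6; GATAAG, bound by the nitrogen regulators Gln3 and Gat1; CCCCT, the stress response element bound by Msn2 and Msn4; and TGACTC, bound by the amino acid regulator Gcn4.
ATG8: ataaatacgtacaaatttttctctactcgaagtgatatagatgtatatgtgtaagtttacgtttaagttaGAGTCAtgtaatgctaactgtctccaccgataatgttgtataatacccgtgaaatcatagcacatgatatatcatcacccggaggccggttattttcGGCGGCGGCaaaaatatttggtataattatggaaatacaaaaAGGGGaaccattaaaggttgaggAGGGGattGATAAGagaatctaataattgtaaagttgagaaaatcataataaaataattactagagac
ATG39: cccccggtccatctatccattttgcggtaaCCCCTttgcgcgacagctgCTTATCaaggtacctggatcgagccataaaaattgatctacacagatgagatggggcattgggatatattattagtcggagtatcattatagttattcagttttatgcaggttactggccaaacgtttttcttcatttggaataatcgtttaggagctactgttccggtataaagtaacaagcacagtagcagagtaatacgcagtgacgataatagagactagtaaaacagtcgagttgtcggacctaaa
ATG9: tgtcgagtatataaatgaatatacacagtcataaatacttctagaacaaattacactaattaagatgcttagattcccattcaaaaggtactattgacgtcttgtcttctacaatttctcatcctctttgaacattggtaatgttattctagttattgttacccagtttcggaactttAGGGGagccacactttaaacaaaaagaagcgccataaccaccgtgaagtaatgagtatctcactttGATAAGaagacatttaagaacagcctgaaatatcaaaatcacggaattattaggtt
ATG12: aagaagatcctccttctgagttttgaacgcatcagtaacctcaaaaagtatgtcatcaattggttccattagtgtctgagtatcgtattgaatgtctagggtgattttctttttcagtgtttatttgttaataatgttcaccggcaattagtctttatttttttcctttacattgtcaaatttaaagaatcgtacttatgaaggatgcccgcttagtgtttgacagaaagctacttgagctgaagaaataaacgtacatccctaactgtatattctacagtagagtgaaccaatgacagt

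The ATG8 window held all 4 motifs in 6 matches, in which the 2 GCCGCC matches overlap each other. Its GATAAG lay 60 to 55 bases before the start codon. ATG39 and ATG9 each held 1 GATAAG and 1 CCCCT, and ATG12 none of the motifs. Of the 18 members with none of the motifs 10 also fell in GD relative to SD, among them ATG2, ATG3, ATG7 and ATG36, and of the 17 with any of them 14 fell. The neighbouring gene YBP1, on the other strand, lies 231 bases upstream of ATG12, so part of that window is YBP1. Windows of some other members also reach into a neighbouring gene. OPY1 lies 237 bases upstream of ATG14, so the GATAAG of ATG14, at 271 to 266 bases, is within OPY1. It is counted with the others below. Over the 35 members, GATAAG was found in 11 (31.4%), CCCCT in 11 (31.4%), TGACTC in 5 (14.3%) and GCCGCC in 3 (8.6%). Over all 6001 windows of the same length the shares were 14.7% for GATAAG, 22.2% for CCCCT, 7.8% for TGACTC and 5.2% for GCCGCC. Of the 11 members with GATAAG, 10 fell in GD relative to SD, and of the 24 without it 14 fell. The counts were 9 of 11 with CCCCT and 15 of 24 without, 4 of 5 with TGACTC and 20 of 30 without, and 2 of 3 with GCCGCC and 22 of 32 without. No difference between these counts was tested. A match describes the letters only, and whether any factor was bound was not measured.

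Among the conjugation genes, ATG8 had the highest level. It encodes the ubiquitin-like protein that is attached to the autophagosome membrane. ATG8 had 299.8, 211 and 211 FPKM in GD1 to GD3, 678, 799.8 and 760.1 FPKM in SD1 to SD3, and 496 FPKM in the control. The GD libraries were all below the control and the SD libraries all above it, and GD was lower than SD by a log2 difference of -1.65 ± 0.21 (limma adjusted p = 0.00122). Its mean was 241 ± 51.3 FPKM in GD and 746 ± 62.0 FPKM in SD (mean ± standard deviation, n = 3 each).

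The enzymes that process or activate Atg8 followed the same direction. ATG7, the E1-like enzyme shared by both ubiquitin-like systems, had 15.3, 13.1 and 12.9 FPKM in GD1 to GD3, 32.8, 27.9 and 33.9 FPKM in SD1 to SD3, and 15.8 FPKM in the control. ATG3, the E2-like enzyme for Atg8, had 57.2, 40.7 and 41.8 FPKM in GD1 to GD3, 98.5, 102 and 120.2 FPKM in SD1 to SD3, and 102 FPKM in the control. ATG4, the protease that trims Atg8, had 27.2, 29.5 and 19.9 FPKM in GD1 to GD3, 53.6, 46.9 and 55.9 FPKM in SD1 to SD3, and 34.6 FPKM in the control. In each of the 3 every GD library was below every SD library, with differences of -1.14 ± 0.14 for ATG7, -1.19 ± 0.17 for ATG3 and -1.02 ± 0.17 for ATG4 (limma adjusted p = 0.00125, 0.00211 and 0.00391).

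The branch that builds the Atg12 conjugate did not move together. ATG12, the second ubiquitin-like protein, had 89.2, 90.7 and 95.9 FPKM in GD1 to GD3, 69.5, 68.1 and 70.9 FPKM in SD1 to SD3, and 169.6 FPKM in the control. All 3 GD libraries were above all 3 SD libraries, by 0.40 ± 0.12 (limma adjusted p = 0.0334), and both groups were below the control. That call was lost without GD1, GD3, SD1, SD2 or SD3, with a highest adjusted p of 0.118. ATG10, the E2-like enzyme for Atg12, had 18.1, 18.7 and 16.5 FPKM in GD1 to GD3, 22.9, 18.9 and 20.2 FPKM in SD1 to SD3, and 50.5 FPKM in the control, a difference of -0.20 ± 0.13 with a 95% interval of -0.52 to 0.11 that was not called. ATG5, to which Atg12 is joined, had 61.6, 142 and 61.1 FPKM in GD1 to GD3, 104, 70.9 and 124 FPKM in SD1 to SD3, and 66.6 FPKM in the control. Its GD and SD values overlapped, with GD2 above every SD library, and the difference was -0.25 ± 0.36 (95% interval -1.10 to 0.59). ATG16, which completes the Atg12-Atg5-Atg16 complex, had 16.96, 20.1 and 15.7 FPKM in GD1 to GD3, 29.6, 30.2 and 29.97 FPKM in SD1 to SD3, and 29.02 FPKM in the control, and it fell in GD relative to SD (-0.74 ± 0.14, limma adjusted p = 0.0053).

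In the initiation complex the scaffold genes fell and the kinase gene varied within GD. ATG1, the protein kinase that starts autophagy, had 27.4, 78.3 and 13.04 FPKM in GD1 to GD3, 101, 82.4 and 96.4 FPKM in SD1 to SD3, and 28.2 FPKM in the control. GD2 was close to the SD libraries while GD1 and GD3 were far below them, and the difference of -1.57 ± 0.55 was not called (limma adjusted p = 0.0552). Without GD2 the difference in ATG1 was -2.23 ± 0.28 (limma adjusted p = 0.00101). Leaving out GD2 also raised the calls over all 5899 genes from 2408 to 3218. ATG13, the regulatory subunit that binds Atg1, had 66.01, 82.7 and 51.3 FPKM in GD1 to GD3, 74.5, 68.2 and 65.8 FPKM in SD1 to SD3, and 85.2 FPKM in the control. The ATG13 groups overlapped, and the difference was -0.08 ± 0.19 with a 95% interval of -0.52 to 0.35.

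The other 3 subunits, which form the starvation scaffold, all fell in GD relative to SD. ATG17, the central scaffold protein, had 24.98, 22.2 and 21.5 FPKM in GD1 to GD3, 34.7, 39.3 and 37.7 FPKM in SD1 to SD3, and 54.5 FPKM in the control. ATG29 had 31.99, 40.1 and 21.02 FPKM in GD1 to GD3, 69.1, 71.6 and 75.2 FPKM in SD1 to SD3, and 86.1 FPKM in the control, and its annotation overlaps that of SET6 by 24 bases. ATG31 had 42.0, 38.5 and 32.5 FPKM in GD1 to GD3, 64.2, 77.2 and 65.8 FPKM in SD1 to SD3, and 99.0 FPKM in the control. None of the 3 overlapped between GD and SD, and the differences were -0.68 ± 0.12 for ATG17, -1.23 ± 0.22 for ATG29 and -0.86 ± 0.15 for ATG31 (limma adjusted p = 0.00539, 0.00512 and 0.00408). In all 3 the control was above every library of both strains in the deposited FPKM.

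The genes for cargo selection moved in one direction: all 8 of the scaffold and receptor genes fell in GD relative to SD. That stands against 24 of all 35 members and 20.4% of all genes. ATG39, a receptor for the nuclear envelope and the perinuclear endoplasmic reticulum, had 28.9, 37.7 and 18.8 FPKM in GD1 to GD3, 154, 119.95 and 145 FPKM in SD1 to SD3, and 32.5 FPKM in the control. The GD libraries lay on both sides of the control and the SD libraries far above both, with a GD minus SD difference of -2.30 ± 0.25 (limma adjusted p = 0.000656). ATG40, the receptor for the peripheral endoplasmic reticulum, had 29.0, 36.6 and 19.9 FPKM in GD1 to GD3, 107, 97.8 and 98.2 FPKM in SD1 to SD3, and 58.2 FPKM in the control, and the 3 SD libraries were all above the control and the 3 GD libraries all below it. The ATG40 difference was -1.83 ± 0.21 (limma adjusted p = 0.000918).

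The receptors of mitochondria and peroxisomes had a like order. ATG32, the mitophagy receptor, had 33.0, 42.6 and 17.3 FPKM in GD1 to GD3, 82.2, 80.7 and 82.8 FPKM in SD1 to SD3, and 44.3 FPKM in the control. ATG36, the receptor for peroxisomes, had 32.6, 50.9 and 21.7 FPKM in GD1 to GD3, 103, 99.4 and 101 FPKM in SD1 to SD3, and 42.1 FPKM in the control. In both the SD libraries lay within a narrow range above the control, and GD3 was the lowest library. The differences were -1.47 ± 0.30 for ATG32 and -1.58 ± 0.28 for ATG36 (limma adjusted p = 0.00795 and 0.00449).

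The receptors of the cytoplasm-to-vacuole pathway, which delivers hydrolases, are ATG19 and its relative ATG34. ATG19, on chromosome XV downstream of ATG34, had 136, 121 and 85.95 FPKM in GD1 to GD3, 219.5, 194 and 196 FPKM in SD1 to SD3, and 246 FPKM in the control. ATG34 had 33.2, 39.8 and 25.6 FPKM in GD1 to GD3, 114, 108 and 124 FPKM in SD1 to SD3, and 87.2 FPKM in the control. Both fell in GD relative to SD without overlap, with differences of -0.85 ± 0.20 for ATG19 and -1.80 ± 0.18 for ATG34 (limma adjusted p = 0.0133 and 0.000485); the ATG19 call was lost without SD1 or SD3, with a highest adjusted p of 0.0551. No stretch of 50 bases of either gene, or of any other member, occurs elsewhere in R64.

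ATG11, the scaffold that links receptors to the Atg1 kinase, had 20.1, 32.4 and 12.2 FPKM in GD1 to GD3, 46.3, 43.9 and 47.2 FPKM in SD1 to SD3, and 38.3 FPKM in the control. GD spread over a wider range than SD, and the fall of -1.15 ± 0.31 (limma adjusted p = 0.0211) was lost without GD1, SD1, SD2 or SD3, with a highest adjusted p of 0.0694. ATG45, a gene grouped here with the receptors, had 21.6, 24.2 and 17.7 FPKM in GD1 to GD3, 43.9, 51.2 and 39.9 FPKM in SD1 to SD3, and 90.5 FPKM in the control. Its GD libraries were below its SD libraries and both were below the control, with a GD minus SD difference of -1.06 ± 0.16 (limma adjusted p = 0.0026).

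Of the 8 genes for membrane supply and lipid transfer, 5 fell in GD relative to SD, against 24 of all 35 members and 20.4% of all genes. ATG9, the membrane protein whose vesicles seed the autophagosome, had 13.04, 13.2 and 9.93 FPKM in GD1 to GD3, 33.8, 35.4 and 38.9 FPKM in SD1 to SD3, and 22.4 FPKM in the control. The control lay between the groups, above every GD library and below every SD library, and the difference of GD minus SD was -1.51 ± 0.15 (limma adjusted p = 0.000568). ATG2, the lipid-transfer protein that works with Atg9, had 11.04, 9.66 and 9.57 FPKM in GD1 to GD3, 24.9, 22.1 and 23.9 FPKM in SD1 to SD3, and 13.2 FPKM in the control. The 3 SD libraries of ATG2 were all above the control and the 3 GD libraries all below it, with a difference of -1.15 ± 0.14 (limma adjusted p = 0.0011).

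ATG23, a peripheral partner of Atg9, had 16.4, 21.4 and 18.6 FPKM in GD1 to GD3, 33.9, 34.1 and 31.0 FPKM in SD1 to SD3, and 41.2 FPKM in the control. ATG27, a membrane protein also needed for Atg9 traffic, had 127, 112 and 118 FPKM in GD1 to GD3, 106, 113 and 102 FPKM in SD1 to SD3, and 214 FPKM in the control. The members of this pair differed: ATG23 fell in GD relative to SD (-0.79 ± 0.14, limma adjusted p = 0.00475), whereas the ATG27 groups overlapped with a difference of 0.15 ± 0.14 (95% interval -0.17 to 0.47). In both, the control exceeded every strain library in the deposited FPKM.

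ATG20, a sorting nexin, had 44.5, 57.3 and 31.03 FPKM in GD1 to GD3, 88.5, 79.5 and 97.8 FPKM in SD1 to SD3, and 59.6 FPKM in the control. ATG21, which binds phosphoinositides and helps place the conjugation machinery, had 39.3, 40.5 and 26.3 FPKM in GD1 to GD3, 55.2, 61.99 and 65.7 FPKM in SD1 to SD3, and 49.9 FPKM in the control. Both fell in GD relative to SD, with differences of -1.02 ± 0.22 for ATG20 and -0.79 ± 0.19 for ATG21 (limma adjusted p = 0.0104 and 0.0133), and the ATG21 call was lost without SD3 (adjusted p = 0.0617). ATG18, the relative of Atg21 that works with Atg2, ranged over 42.3 to 69.2 FPKM in GD and 57.4 to 59.9 FPKM in SD, with 59.7 FPKM in the control, and its difference was -0.13 ± 0.19 (95% interval -0.56 to 0.30).

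ATG41, which encodes an Atg9-binding protein, had 971, 2523 and 349 FPKM in GD1 to GD3, 2245, 2104 and 2198 FPKM in SD1 to SD3, and 155 FPKM in the control. The SD libraries were within a narrow range, whereas GD2 lay above them, GD1 below them and GD3 far below. All 6 strain libraries exceeded the control. The GD mean was 1281 ± 1120 FPKM and the SD mean 2182 ± 72.0 FPKM (mean ± standard deviation, n = 3 each), and the difference of -1.20 ± 0.63 was not called (limma adjusted p = 0.167). Without GD2 the ATG41 difference was -1.90 ± 0.40 (limma adjusted p = 0.00722), in a fit that called 3218 of all genes against 2408 with GD2.

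In the lipid kinase complex, ATG14, the subunit that brings the kinase to autophagy, had 23.9, 25.9 and 23.3 FPKM in GD1 to GD3, 48.1, 42.9 and 41.1 FPKM in SD1 to SD3, and 27.2 FPKM in the control. It fell in GD relative to SD (-0.83 ± 0.12, limma adjusted p = 0.00237), with no overlap. ATG38, which holds that complex together, ranged over 38.4 to 109.6 FPKM in GD and 111 to 139 FPKM in SD, with 115 FPKM in the control, and was not called (difference -0.86 ± 0.35, limma adjusted p = 0.086). Without GD2, ATG38 differed by -1.20 ± 0.27 (limma adjusted p = 0.00965), in a fit that called 3218 of all genes against 2408 with GD2.

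The 4 remaining members have other roles. ATG33, a mitochondrial outer membrane protein with a part in mitophagy, had 257, 256 and 160.2 FPKM in GD1 to GD3, 530.0, 499 and 523 FPKM in SD1 to SD3, and 499.7 FPKM in the control. ATG26, a sterol glucosyltransferase needed for peroxisome breakdown in the methylotrophic yeast Pichia pastoris, had 37.2, 44.6 and 27.1 FPKM in GD1 to GD3, 55.05, 55.8 and 54.8 FPKM in SD1 to SD3, and 66.8 FPKM in the control. Both fell in GD relative to SD, with differences of -1.23 ± 0.22 for ATG33 and -0.62 ± 0.18 for ATG26 (limma adjusted p = 0.00521 and 0.0312). The ATG26 call was lost without GD1, SD1, SD2 or SD3, with a highest adjusted p of 0.0951. ATG44, a mitochondrial fission protein used in mitophagy, had 178, 156 and 174 FPKM in GD1 to GD3, 263, 207 and 200.1 FPKM in SD1 to SD3, and 370.4 FPKM in the control. Its GD libraries were all below its SD libraries and the control exceeded both groups, but GD against SD was not called (-0.39 ± 0.17, 95% interval -0.78 to 0.01). ATG42, a vacuolar carboxypeptidase, ranged over 58.6 to 107.7 FPKM in GD and 100.7 to 139.9 FPKM in SD, with 70.5 FPKM in the control, and its groups overlapped.

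The members varied more within GD than within SD. The highest library divided by the lowest had a median over the 35 genes of 1.56 in GD and 1.14 in SD. In GD the largest such ratio was 7.23, for ATG41, and in SD 1.74, for ATG5. GD3 was the lowest GD library for 29 of the 35 members and for 53.6% of all genes, and GD2 the highest for 23 members and 49.1% of all genes. On FPKM + 1, the median ratio over all genes was 1.42 in GD and 1.18 in SD, against 1.54 in GD and 1.14 in SD over the members. Genes with a ratio above 1.5 numbered 19 in GD and 1 in SD.

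**Figure D3:**
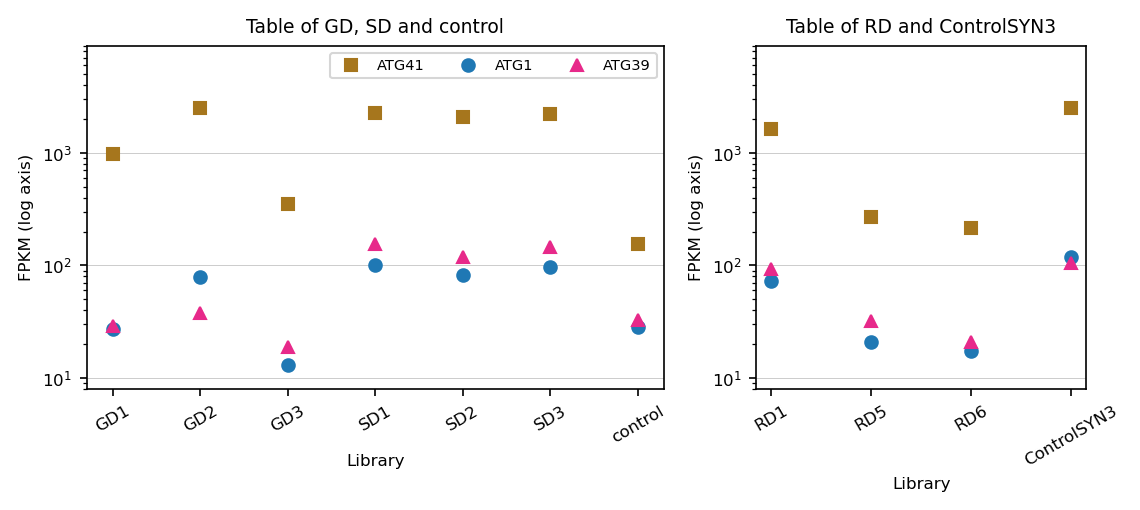
FPKM (log axis) of ATG41, ATG1 and ATG39 in each of the 11 libraries, with the 2 tables in separate panels; each point is 1 library. GD2 and RD1 lie high within their groups for ATG41 and ATG1, and for ATG41 the control is below all GD and SD libraries while ControlSYN3 is above all RD libraries.

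Against the control, SD and GD share that single library as their reference. The median-of-ratios scale factor of the control was 1.27, the highest of the table. The median difference over all genes was -0.37 in SD and -0.44 in GD, and differences are read against those shifts.

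Relative to the control, 7 autophagy genes rose and 6 fell in SD, and 22 were not called. Of all genes, 41.8% were called, 10.4% higher and 31.4% lower. The members' median difference was 0.25, which is 0.62 above that of all genes, and 28 of the 35 lay above the median of all genes. Every SD library was above the control for 19 members and below it for 12, against 28.4% and 60.5% of all genes. With median-of-ratios scaling 14 rose and 3, ATG10, ATG12 and ATG45, fell, the members' median was 0.62, and 10 of the 13 calls were kept; of all genes 36.2% were then called, 18.7% higher and 17.5% lower. In the fit of SD and control alone 14 members rose and 7 fell, where 61.8% of all genes were called, 17.8% higher and 44% lower. No called member changed sign under the scaling. Some uncalled members did, such as ATG29 (-0.26 to 0.12) and ATG23 (-0.31 to 0.06), for which the control exceeded every SD library before scaling.

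The rises in SD were led by ATG41 and ATG39. ATG41 was 3.80 ± 0.90 above the control (limma adjusted p = 0.0135) and ATG39 2.06 ± 0.35 (limma adjusted p = 0.00386). The E1-like enzyme gene ATG7 rose by 0.95 ± 0.20 (limma adjusted p = 0.00913). The calls of these 3 were made whichever library was left out. The peroxisome receptor gene ATG36 (1.24 ± 0.39), ATG2 (0.79 ± 0.20), ATG14 (0.67 ± 0.17) and ATG9 (0.66 ± 0.22) also rose, with limma adjusted p of 0.0371, 0.0161, 0.0182 and 0.0441. Those 4 calls were lost without at least 1 library: ATG14 without SD1, ATG2 without SD1 or SD3, and ATG36 and ATG9 without GD1, SD1, SD2 or SD3, with highest adjusted p of 0.0668, 0.0631, 0.0816 and 0.131. The ATG1 difference was 1.68 ± 0.78 and that of ATG8 0.59 ± 0.29, neither of them called (limma adjusted p = 0.121 and 0.142). Without GD2, which enters this comparison only through the shared spread, ATG1 was called in SD at the same difference (limma adjusted p = 0.00688). Calls over all genes rose from 2468 to 3253 in that fit.

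The 6 genes that fell in SD relative to the control were of several roles. In the Atg12 branch ATG12 and ATG10 were called, and ATG5 and ATG16 were not. ATG12 was -1.28 ± 0.17 and ATG10 -1.25 ± 0.19 (limma adjusted p = 0.00198 and 0.00273). ATG45 (-1.0 ± 0.23) and ATG27 (-0.99 ± 0.19) fell as well (limma adjusted p = 0.0113 and 0.0064). The calls of these 4 were made whichever library was left out, while that of ATG27 was lost with the median-of-ratios scaling. The falls of ATG44 (-0.74 ± 0.24, limma adjusted p = 0.0406) and ATG17 (-0.54 ± 0.18, limma adjusted p = 0.0419) were lost with that scaling too. Leaving out GD1, SD2 or SD3 ended both of these calls, and leaving out SD1 that of ATG17, with highest adjusted p of 0.122 for ATG44 and 0.126 for ATG17.

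Relative to the control, 18 autophagy genes fell in GD, 0 rose, and 17 were not called by limma. At an unadjusted limma p below 0.05 there were 19 members, of which 18 were lower, and 2704 of all 5899 genes tested. Of all genes, 32.1% were called, 27.1% lower and 4.98% higher. The members' median difference was -0.84, which is 0.40 below that of all genes, and 24 of the 35 lay below the median of all genes. Every GD library was below the control for 28 members, against 59.6% of all genes. All were above it for 1, ATG41, against 16.2% of all genes. With median-of-ratios scaling 7 of the 18 were still called lower, with a members' median of -0.43 (ATG10, ATG17, ATG23, ATG29, ATG31, ATG34 and ATG45) and 1, ATG41, was called higher; of all genes 18.3% were then called, 8.98% lower and 9.32% higher. In the fit of GD and control alone 3 members were called lower, ATG10, ATG31 and ATG45, where 4.61% of all genes were called, 3.48% lower.

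The largest falls in GD relative to the control were those of ATG45 (-2.06 ± 0.23), ATG29 (-1.49 ± 0.31), ATG10 (-1.46 ± 0.19), ATG34 (-1.40 ± 0.25) and ATG31 (-1.38 ± 0.21), with limma adjusted p of 0.00332, 0.0137, 0.00425, 0.00848 and 0.00574. The complete starvation scaffold of ATG17 (-1.22 ± 0.18, limma adjusted p = 0.00509), ATG29 and ATG31 was among the genes called under both scalings. ATG10 and ATG45 were called under every alternative tried. Of the 18 calls, 11 were made whichever library was left out. ATG8 (-1.06 ± 0.29) and ATG9 (-0.85 ± 0.22) lost theirs without SD1, SD2 or SD3; ATG16, ATG26 and ATG40 also without GD1; ATG19 without SD3; and ATG33 without SD1 or SD3. Their highest adjusted p in limma lay between 0.0509 (ATG19) and 0.0743 (ATG26). ATG41 was 2.60 ± 0.90 above the control and not called (limma adjusted p = 0.0611), while without GD2 it was 1.90 ± 0.54 above it (limma adjusted p = 0.0266). Calls over all genes rose from 1895 to 2779 when GD2 was left out.

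Set side by side, members fall into different positions relative to the shared control. ATG12 was -0.88 ± 0.17 in GD and -1.28 ± 0.17 in SD, and ATG10 -1.46 ± 0.19 and -1.25 ± 0.19 in the same order. ATG9 was -0.85 ± 0.22 in GD and 0.66 ± 0.22 in SD, on opposite sides of the control. ATG39 was -0.24 ± 0.35 in GD, where it was not called, and 2.06 ± 0.35 in SD.

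**Figure D4:**
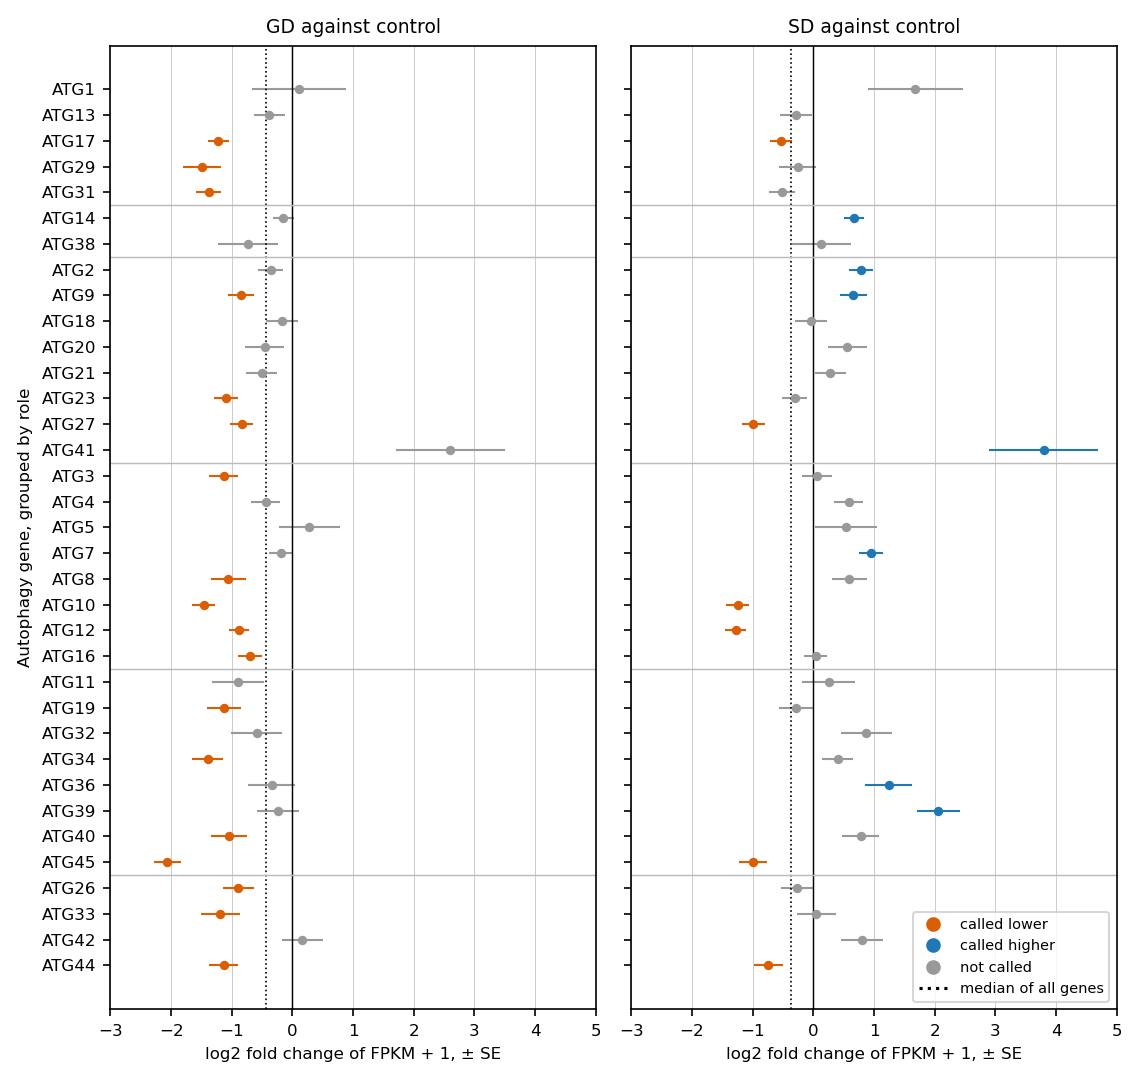
Differences from the control on the log2(FPKM + 1) scale for the 35 autophagy genes, ordered by role, in GD and SD, with standard errors and with coloured points for genes called by limma. SD points reach from -1.28 (ATG12) to 3.80 (ATG41) and GD points from -2.06 (ATG45) to 2.60 (ATG41); both use the same control library, and the dotted lines mark the medians of all genes, -0.44 for GD and -0.37 for SD.

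RD against ControlSYN3 gave no called autophagy gene. None of the 5895 genes tested was called by limma either (0%), with 2 residual degrees of freedom, and the lowest adjusted p of a member was 0.41. In simulated data this fit called 0% of planted 4-fold changes, so a lack of calls does not show a lack of change. At an unadjusted p below 0.05 there were 4 members, ATG5 and ATG10 lower and ATG17 and ATG23 higher, and 671 genes in all; limma without the trend and robust settings called 1 gene, which is no member. The members' median difference was -0.44 and that of all genes -0.10. All 3 RD libraries were below ControlSYN3 for 18 members, against 41.2% of all genes, and above it for 2, against 29%.

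RD1 was above both RD5 and RD6 in 31 of the 35 members and in 51% of all genes. It was within 1.5-fold of ControlSYN3 in 28 members and in 81.8% of all genes. RD5 and RD6 were both below ControlSYN3 in 30 members and in 54.3% of all genes. Without RD1, 22 members were called lower and 2 higher, ATG17 and ATG23, but of all genes 53.9% were called, 31.8% lower and 22.1% higher, and that fit had 1 residual degree of freedom. RD1 also differed from RD5 and RD6 in its mating-type genes, but in these ControlSYN3 was like RD5 and RD6. The alpha-type genes summed to 114, 9071 and 8494 FPKM in RD1, RD5 and RD6 and to 8320 FPKM in ControlSYN3. What part mating type had in the autophagy differences was not tested.

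The library differences were large for the initiation kinase and the Atg9-binding protein. ATG41 had 1622, 271 and 214 FPKM in RD1, RD5 and RD6, against 2498 FPKM in ControlSYN3. ATG1 had 72.2, 20.7 and 17.3 FPKM in RD1, RD5 and RD6, against 119 FPKM in ControlSYN3. ATG39 had 92.9, 31.9 and 20.96 FPKM in RD1, RD5 and RD6, against 105 FPKM in ControlSYN3. In these 3 genes RD1 lay between ControlSYN3 and the other RD libraries; without RD1 the differences were -3.37 ± 0.19 for ATG41, -2.59 ± 0.14 for ATG1 and -1.98 ± 0.26 for ATG39 (limma adjusted p = 0.00176, 0.00174 and 0.00577). With RD1 they were -2.45 ± 1.37 for ATG41, -1.96 ± 0.93 for ATG1 and -1.38 ± 0.92 for ATG39, and not called.

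The lipid kinase subunit gene ATG14 had 40.01, 11.1 and 11.8 FPKM in RD1, RD5 and RD6, against 32.97 FPKM in ControlSYN3. ATG33, of the mitochondrial outer membrane, had 541, 241 and 231 FPKM in RD1, RD5 and RD6, against 592 FPKM in ControlSYN3. ATG8 had 321, 159 and 150.3 FPKM in RD1, RD5 and RD6, against 279.96 FPKM in ControlSYN3. For each, RD5 and RD6 lay close together below ControlSYN3, and without RD1 the differences were -1.45 ± 0.12 for ATG14, -1.32 ± 0.12 for ATG33 and -0.85 ± 0.11 for ATG8 (limma adjusted p = 0.0024, 0.0026 and 0.00495). RD1 exceeded ControlSYN3 for ATG14 and ATG8.

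The rest of the initiation complex was mixed. ATG13 had 82.5, 51.6 and 53.4 FPKM in RD1, RD5 and RD6, against 105 FPKM in ControlSYN3. ATG17 had 29.3, 26.5 and 23.4 FPKM in RD1, RD5 and RD6, against 17.5 FPKM in ControlSYN3. ATG29 had 41.2, 34.8 and 28.3 FPKM in RD1, RD5 and RD6, against 43.3 FPKM in ControlSYN3, and ATG31 had 56.5, 40.3 and 35.8 FPKM in RD1, RD5 and RD6, against 63.5 FPKM in ControlSYN3. ATG17 was higher in every RD library than in ControlSYN3, and ATG13, ATG29 and ATG31 were lower in every one.

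Among the receptors, ATG32 had 66.01, 34.9 and 26.5 FPKM in RD1, RD5 and RD6, against 66.8 FPKM in ControlSYN3. ATG36 had 54.98, 33.4 and 29.6 FPKM in RD1, RD5 and RD6, against 57.02 FPKM in ControlSYN3. ATG40 had 54.3, 37.7 and 33.5 FPKM in RD1, RD5 and RD6, against 55.6 FPKM in ControlSYN3. In these 3, RD1 was close to ControlSYN3 and RD5 and RD6 were lower. ATG11 had 28.1, 16.8 and 14.4 FPKM in RD1, RD5 and RD6, against 27.8 FPKM in ControlSYN3. ATG19 had 227, 108 and 129 FPKM in RD1, RD5 and RD6, against 184 FPKM in ControlSYN3. ATG34 had 84.8, 48.8 and 46.03 FPKM in RD1, RD5 and RD6, against 56.3 FPKM in ControlSYN3, and ATG45 had 33.0, 21.1 and 22.3 FPKM in RD1, RD5 and RD6, against 24.3 FPKM in ControlSYN3. In these 4, RD1 was above ControlSYN3 and the other RD libraries below it.

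In the conjugation systems, ATG3 had 61.4, 51.8 and 50.8 FPKM in RD1, RD5 and RD6, against 58.4 FPKM in ControlSYN3. ATG4 had 40.5, 30.3 and 24.1 FPKM in RD1, RD5 and RD6, against 38.9 FPKM in ControlSYN3. ATG7 had 28.6, 16.5 and 15.3 FPKM in RD1, RD5 and RD6, against 15.3 FPKM in ControlSYN3. In these enzymes of Atg8, RD1 was above RD5, RD6 and ControlSYN3. ATG5 had 41.3, 47.6 and 41.1 FPKM in RD1, RD5 and RD6, against 65.1 FPKM in ControlSYN3. ATG10 had 11.01, 13.1 and 11.2 FPKM in RD1, RD5 and RD6, against 18.6 FPKM in ControlSYN3. ATG12 had 46.5, 41.5 and 40.7 FPKM in RD1, RD5 and RD6, against 45.0 FPKM in ControlSYN3, and ATG16 had 16.2, 16.1 and 13.3 FPKM in RD1, RD5 and RD6, against 20.9 FPKM in ControlSYN3. ATG5, ATG10 and ATG16 were below ControlSYN3 in every RD library, and ATG12 had its RD libraries on both sides of it.

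For membrane supply, ATG9 had 27.8, 19.96 and 16.7 FPKM in RD1, RD5 and RD6, against 19.6 FPKM in ControlSYN3. ATG2 had 20.1, 12.3 and 13.1 FPKM in RD1, RD5 and RD6, against 16.5 FPKM in ControlSYN3. ATG23 had 22.9, 17.6 and 23.1 FPKM in RD1, RD5 and RD6, against 12.6 FPKM in ControlSYN3. ATG23 was the other gene that every RD library placed above ControlSYN3, and for ATG9 the RD libraries lay on both sides of it. ATG20 had 65.4, 50.2 and 41.0 FPKM in RD1, RD5 and RD6, against 67.97 FPKM in ControlSYN3. ATG21 had 56.6, 42.1 and 37.0 FPKM in RD1, RD5 and RD6, against 70.4 FPKM in ControlSYN3. ATG27 had 103, 121 and 111 FPKM in RD1, RD5 and RD6, against 120.5 FPKM in ControlSYN3. ATG20 and ATG21 were lower in every RD library, and ATG27 had RD5 above ControlSYN3. Of the members with other roles, ATG26 had 65.9, 29.3 and 29.9 FPKM in RD1, RD5 and RD6, against 58.4 FPKM in ControlSYN3. ATG44 had 105, 99.6 and 93.9 FPKM in RD1, RD5 and RD6, against 123 FPKM in ControlSYN3. ATG42, also of other roles, ranged over 134 to 268 FPKM in RD, against 217 FPKM in ControlSYN3. ATG18, of membrane supply, ranged over 43.5 to 60.4 FPKM in RD, against 71.7 FPKM in ControlSYN3. ATG38, of the lipid kinase complex, ranged over 46.2 to 95.6 FPKM in RD, against 122 FPKM in ControlSYN3.

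**Figure D5:**
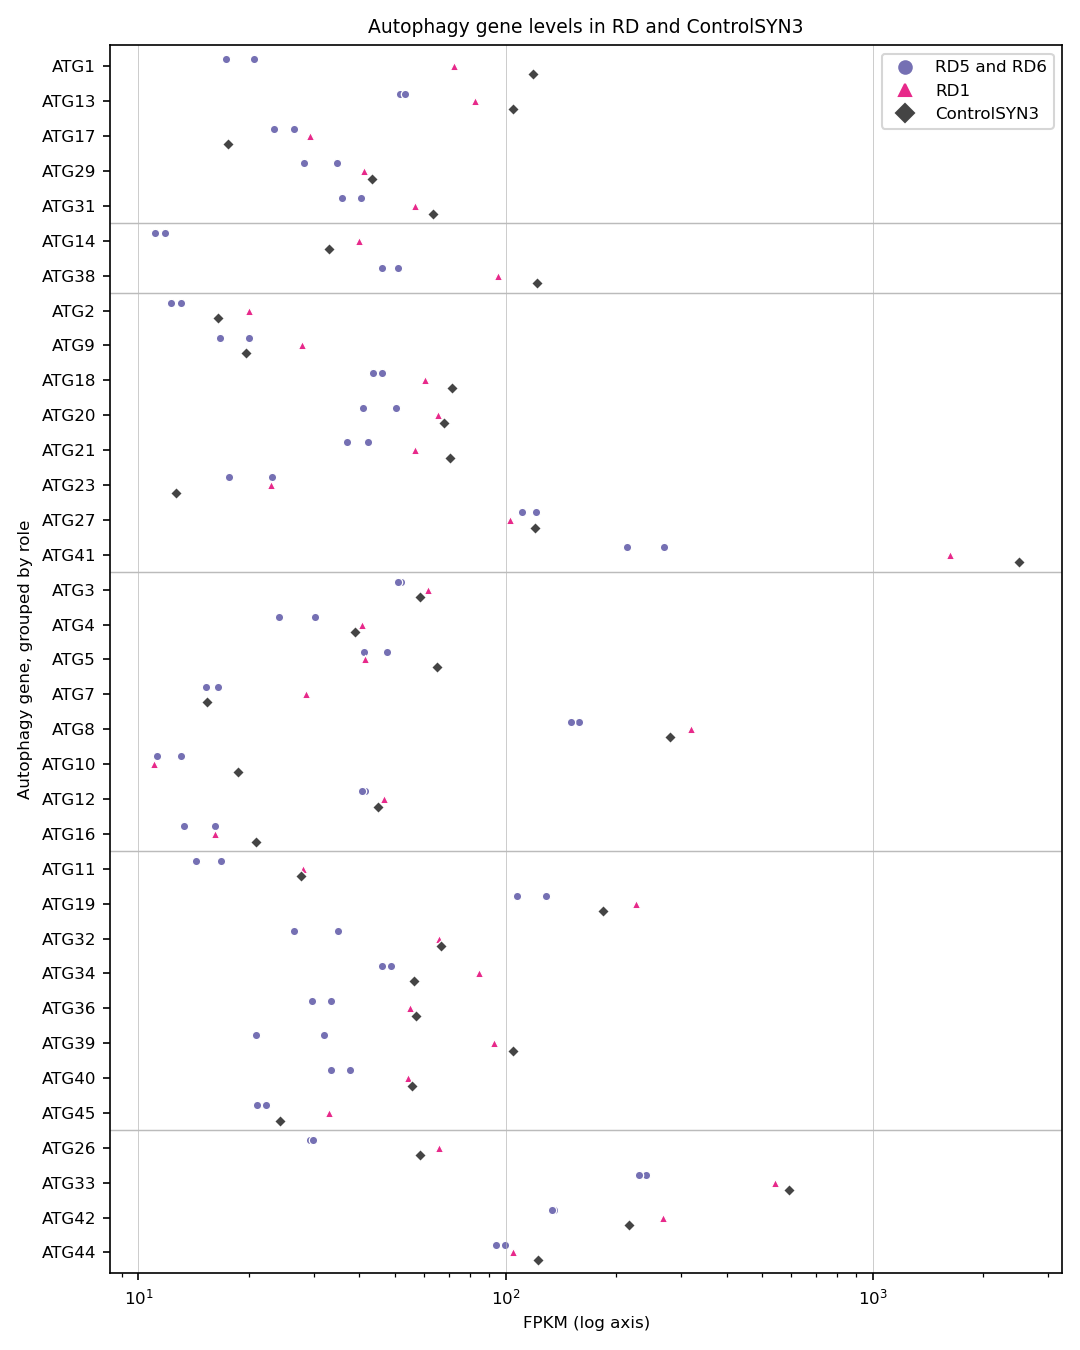
FPKM (log axis) of the 35 autophagy genes, ordered by role, in RD1, RD5, RD6 and ControlSYN3; each point is 1 library. RD1 lies above RD5 and RD6 for 31 of the 35 genes.

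Genes that act with the autophagy genes were counted in GD against SD in the same way. The lists were chosen with earlier results of these data known, and their counts stand against the 20.4% of all genes called lower and 20.4% called higher. The cargo and hydrolases of the vacuole fell in GD relative to SD in 5 of 7, among them AMS1, the alpha-mannosidase carried by Atg19 and Atg34 (-2.13 ± 0.30), the aminopeptidases APE1 (-1.11 ± 0.22) and APE4 (-0.83 ± 0.16), and the protease PRB1 (-1.59 ± 0.34), with limma adjusted p of 0.00194, 0.00745, 0.0062 and 0.00992. The other was the protease gene PEP4 (-0.65 ± 0.22, limma adjusted p = 0.0476), named after its value was seen. Of the 4 partners of the lipid kinase complex 2 fell and 1 rose: the catalytic subunit VPS34 (-0.64 ± 0.21, limma adjusted p = 0.0451) and VPS30 (-0.81 ± 0.22, limma adjusted p = 0.0216) fell, while VPS38, which belongs to the complex of endosomal sorting, rose (0.43 ± 0.12, limma adjusted p = 0.0233). Of the 19 genes of traffic and vacuole fusion 2 fell, SNX4, the sorting nexin partner of Atg20 (-0.69 ± 0.14, limma adjusted p = 0.00735), and the fusion protein gene NYV1 (-0.70 ± 0.20, limma adjusted p = 0.0243).

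Of 14 upstream kinase genes 5 fell and 1 rose, where 20.4% of all genes were called in each direction. Those that fell included the nutrient kinase genes RIM15 (-0.68 ± 0.12) and SCH9 (-0.42 ± 0.13), with limma adjusted p of 0.00512 and 0.0367. Of 15 transcription regulators 6 fell, led by the stress activator MSN4 (-1.80 ± 0.19) and by GIS1 (-1.66 ± 0.26) and RPH1 (-1.05 ± 0.26), a pair of related DNA-binding proteins of which Rph1 is known to repress ATG genes (limma adjusted p = 0.000584, 0.00282 and 0.0152). Of 14 genes listed as repressed by preferred nitrogen sources 6 fell. Among them were PUT1 (-1.69 ± 0.32) and PUT4 (-1.48 ± 0.34), with limma adjusted p of 0.00639 and 0.0128. The glutamate dehydrogenase gene GDH3 fell most (-2.22 ± 0.19, limma adjusted p = 0.000329), and whether nitrogen repression governs it was not tested.

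Against the shared control, 27.1% of all genes were lower in GD, and in SD 31.4% were lower and 10.4% higher. In GD, 8 of the 19 traffic genes, 7 of the 14 nitrogen-repressed genes, 4 of the 14 kinase genes, 4 of the 15 regulators, 1 of the 7 hydrolase and cargo genes and 1 of the 4 kinase partners fell. In SD, 7 traffic genes, 3 nitrogen-repressed genes, 2 kinase genes, 4 regulators and 1 kinase partner fell. From the nitrogen list GDH3 alone rose, as did 2 kinase genes, 2 regulators and 2 hydrolase and cargo genes. Those that rose in SD included AMS1 (1.93 ± 0.42) and PRC1, the vacuolar carboxypeptidase Y gene (1.56 ± 0.32), with limma adjusted p of 0.0101 and 0.00771, and MSN4 (1.68 ± 0.26, limma adjusted p = 0.00296).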

How the data were processed

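Per the labels' protocols, yeast frozen on dry ice was ground cold, RNA was extracted with Trizol, and oligo-dT beads were used for the libraries. Both deposited tables hold FPKM, per the file headers, which the authors calculated; the submitters' processing notes list RSEM, Bowtie2, BWA and the build R64, with no versions. Library strand and the handling of reads from recoded copies were not given in the sources used here. Whole fragments could not be recovered from the low values, so depth is unknown and no counting interval is given.

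Rows were matched to R64 by gene number (5774 of 5936 and 5770 of 5931). The RD libraries were found under column names with the letters MD and the numbers 1, 5 and 6, a match by number that is an inference. Each table was fitted in limma 3.58.1 (R 4.3.3) on log2(FPKM + 1) of the deposited values, with a mean per group, trend and robust estimates, a minimum mean of 1 FPKM and adjustment over all genes. In simulated data the fit called 89% of planted 4-fold and 51% of planted 2-fold changes in GD against SD. The shares were 74% and 32% in GD against control, and 78% and 31% in SD against control. In RD against ControlSYN3 it called 0% of either. Each lone wild-type library took its spread from the strains.

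The members and lists were chosen with earlier results of these data known. Values in every library are given for members called in a comparison and for 12 core members, and ranges for the rest; companion lists name up to 4 genes of lowest p, and some kinase genes are not reported here. Alternatives were no minimum or 10 FPKM, a pseudocount of 0.1, median-of-ratios scaling, limma without trend or robust estimates, a test against a 1.5-fold change, fits of the compared groups alone, a replicate block, and leaving out each strain library. Promoter windows were read from the R64 RefSeq sequence.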

Additional observations from a re-analysis of the deposited data

Results flagged for a closer look

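ATG9 lay on opposite sides of the control in the strains. Every GD library was below the control (-0.85) and every SD library above it (0.66). The difference between the strains, tested directly, was -1.51 on the log2(FPKM + 1) scale (limma adjusted p = 0.000568). It was called under all 14 alternatives. Of 13 alternatives each, both calls against the control were kept in 7. The GD call was lost with median-of-ratios scaling, against a 1.5-fold change, with GD and control alone, and without SD1, SD2 or SD3 (limma adjusted p of 0.0121 to 0.487 over the alternatives). The SD call was lost against a 1.5-fold change, with limma without trend or robust estimates, and without GD1, SD1, SD2 or SD3 (limma adjusted p of 0.0067 to 0.746).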

How the results depend on the processing

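No call reversed its direction under any alternative tried. Of 35 members, GD against SD gave 25 calls, and 9 of them (ATG2, ATG3, ATG7, ATG8, ATG9, ATG34, ATG36, ATG39 and ATG40) were made under all 14 alternatives. A test against a 1.5-fold change left 9 calls, and leaving out 1 library gave 20 to 29. With a replicate block GD against SD again gave 25 calls, all lower: ATG12 was lost and ATG42 gained. Deviations of same-numbered GD and SD libraries correlated at -0.13, -0.18 and -0.17, so those libraries did not deviate together. Whether the numbers pair libraries in the design is not given, and these values cannot tell. No paired analysis was possible for the other comparisons because each has 1 wild-type library. SD against control gave 13 calls, 4 against a 1.5-fold change, 21 with the 2 groups alone and 8 to 19 without 1 library. GD against control gave 18, then 8 with median-of-ratios scaling, 2 against a 1.5-fold change, 3 with the 2 groups alone and 11 to 21 without 1 library. RD against ControlSYN3 gave 0, and 0 to 24 without 1 library, with 24 only without RD1. Over all genes the calls also moved by more than 1.5 times: GD against SD gave 2408, with 531 against a 1.5-fold change, 1570 without SD1 and 1262 without SD3; SD against control 2468, with 866 against a 1.5-fold change; GD against control 1895, with 1080 under median-of-ratios scaling, 228 against a 1.5-fold change, 272 with the 2 groups alone, 1228 without SD1 and 1176 without SD3; and RD against ControlSYN3 0, with 3176 without RD1 and 1 without trend or robust estimates. Few residual degrees of freedom (4 and 2) and single wild-type libraries limit all of these results, and the cause of each change was not tested.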
